A study of Homo sapiens with 12 samples.

Results

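The genes described here lie on human chromosome 14 and had a mean level of at least 5 CPM over 12 libraries of HEK293 cells, a human embryonic kidney line. CPM are reads of a gene per 1 M reads of its library, with the library total scaled by edgeR's TMM method. The genes number 390 of the 2230 chromosome 14 entries in a table of 58735 genes, and of the 11689 genes at that level on all chromosomes. The chromosome was chosen by the comparison of knockdown with wild-type cells in suspension, so its values in that comparison are a description. No p-value is given for them, and counts past a threshold there describe the choice and support nothing. Of the 390 genes, 380 code for proteins, 4 are processed pseudogenes, 3 are antisense genes, and RN7SL2, 1 processed transcript and 1 sense intronic transcript make up the rest.

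The series compared wild-type HEK293 cells with cells carrying a knockdown of EXT1, which makes heparan sulfate chains together with EXT2. Each was grown attached to flasks in DMEM with fetal bovine serum, or shaken at 120 rpm in serum-free EX-CELL 293 medium, both at 37 °C and 5% CO2, which gave 4 groups of 3 libraries after 5 passages. Only adherent cells were trypsinized, so a comparison of cultures also compares medium, serum, shaking and harvest. Neither the method of the knockdown nor whether its cells are 1 clone is in the labels. Nothing says that the libraries of a group came from separate cultures, so a p-value measures the spread among these libraries alone, and that spread may be technical.

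Chromosome 14 is an acrocentric chromosome, with its coding genes on the long arm. It carries a large cluster of immunoglobulin heavy chain genes near the end of the long arm, the imprinted DLK1-MEG3 domain, and single genes of nearly every housekeeping pathway. HEK293 cells are known for a rearranged karyotype that differs between sublines, and DNA was not measured in the data used here.

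EXT1 read as labelled: wild-type adherent libraries held 51.8 to 53.2 CPM and adherent knockdown libraries 11.9 to 12.5 CPM (log2 ratio -2.12, SE 0.09, edgeR adjusted p = 5.668e-12). The suspension ranges were 47.9 to 54.6 CPM and 13.1 to 15.4 CPM, so knockdown and wild type did not overlap in either culture. Reads assigned to genes ran from 13.91 to 21.39 M per library. All 7 HEK293 marker genes were above 1 CPM in every group, and the summed leukocyte and hepatocyte markers stayed below 0.5 CPM in every library (highest 0.415 and 0.449). The summed epithelial carcinoma markers moved with the groups, from 97.2 to 99.4 CPM in wild-type adherent, 197.8 to 204.1 CPM in knockdown adherent, 135.8 to 143.4 CPM in wild-type suspension and 106.7 to 113.3 CPM in knockdown suspension libraries. Of these 4 markers, KRT7 was at 0 in adherent knockdown cells. The 5 fibroblast markers summed to between 18.6 and 35.3 CPM, with COL1A2 at 0 in adherent knockdown and wild-type suspension cells. The part of either marker list in the results was not tested. The library wild-type adherent 3 stood apart in RN7SL2 and RPS29, and values without it are given beside them. The spread in that group was not limited to these genes. Pairs of replicates were compared by a chi-square scaled to its degrees of freedom. Wild-type adherent pairs had the highest values, 12.5, 11.9 and 26.8, the last for replicates 2 and 3. Pairs ran from 2.63 to 4.87 in adherent knockdown, 3 to 6.66 in wild-type suspension and 5.84 to 11.3 in knockdown suspension cells.

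The promoters of 4 genes are shown because those genes mark the range of the chromosome in suspension: PNP and NFATC4 were the lowest, PAX9 was the highest coding gene, and EIF5 was the gene with the smallest error among coding genes within 0.05 log2 of no difference. EIF5 was chosen after its values were seen. The sequences are RefSeq's for GRCh38.p14, from 250 bases before to 50 bases after the annotated start, written 5′ to 3′ on the plus strand, which is the strand of all 4 genes. Of the 390 genes, 331 matched a RefSeq promoter. They lie at chr14:20469156-20469455 (PNP), chr14:24366661-24366960 (NFATC4), chr14:36657318-36657617 (PAX9) and chr14:103333987-103334286 (EIF5), and capitals mark a GC box (GGGCGG) or a CCAAT box (CCAAT) on either strand.
PNP: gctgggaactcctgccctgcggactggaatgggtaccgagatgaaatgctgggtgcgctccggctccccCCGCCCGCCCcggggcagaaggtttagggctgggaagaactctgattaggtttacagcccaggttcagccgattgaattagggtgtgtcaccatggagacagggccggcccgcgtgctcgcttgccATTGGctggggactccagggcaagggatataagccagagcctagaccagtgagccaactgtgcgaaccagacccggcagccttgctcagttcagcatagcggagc
NFATC4: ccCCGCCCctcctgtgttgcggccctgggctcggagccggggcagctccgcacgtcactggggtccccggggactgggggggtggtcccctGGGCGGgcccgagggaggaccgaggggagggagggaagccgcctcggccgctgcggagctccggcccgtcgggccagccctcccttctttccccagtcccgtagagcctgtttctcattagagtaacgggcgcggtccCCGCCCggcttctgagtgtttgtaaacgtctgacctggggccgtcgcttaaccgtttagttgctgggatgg
PAX9: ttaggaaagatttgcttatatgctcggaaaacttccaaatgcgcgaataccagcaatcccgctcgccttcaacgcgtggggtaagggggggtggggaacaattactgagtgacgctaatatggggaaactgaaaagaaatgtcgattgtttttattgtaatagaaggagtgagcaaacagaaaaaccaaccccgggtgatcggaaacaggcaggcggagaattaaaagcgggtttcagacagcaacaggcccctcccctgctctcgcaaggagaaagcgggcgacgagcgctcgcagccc
EIF5: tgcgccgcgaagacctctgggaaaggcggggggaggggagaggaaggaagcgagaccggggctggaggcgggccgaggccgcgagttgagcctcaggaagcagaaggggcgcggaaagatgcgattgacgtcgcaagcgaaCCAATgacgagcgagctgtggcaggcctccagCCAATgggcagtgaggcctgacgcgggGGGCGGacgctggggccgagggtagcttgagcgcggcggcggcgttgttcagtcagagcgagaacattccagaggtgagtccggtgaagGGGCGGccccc
The PNP window held 2 GC boxes, which overlap each other, and 1 CCAAT box. NFATC4 held 3 GC boxes and EIF5 held 2 GC boxes and 2 CCAAT boxes. PAX9 held neither motif, and no window of the 4 held an E-box (CACGTG), a cAMP response element (TGACGTCA) or a TATA box (TATAAA). A GC box was present in 70.7% of the 331 promoters against 44.95% of all 35116 RefSeq promoters of the same length, a CCAAT box in 40.2% against 34.6%, a TATA box in 5.74% against 11.5%, an E-box in 6.95% against 7.26% and a cAMP response element in 3.63% against 1.85%. All RefSeq promoters include those of genes below 5 CPM, so the shares compare unlike sets. In suspension the median log2 ratio was -0.36 for the 234 genes with a GC box and -0.34 for the 97 without, and -0.37 and -0.35 for the 133 with and the 198 without a CCAAT box. It was -0.30 for the 23 genes with an E-box and -0.36 for the 308 without, -0.43 for the 12 with a cAMP response element and -0.36 for the 319 without, and -0.33 for the 19 with a TATA box and -0.36 for the 312 without. These gaps were not tested.

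In suspension, chromosome 14 genes were lower in knockdown cells over the whole measured length of the long arm, with modest differences between its windows. The median log2 ratio of knockdown to wild type over the 390 genes was -0.36, which is 78.0% of the wild-type level. The ratio was below 0 for 376 genes, the middle 50% of genes lay between -0.47 and -0.23, and 316 genes lay within 0.25 of the median. Against it, the 11299 genes of at least 5 CPM on the other chromosomes had a median of 0.00 and 49.7% of them were below 0. Of the chromosome 14 genes, 259 passed an edgeR adjusted p of 0.05 as lower and 0 as higher. The same rule called 14.7% of all genes of at least 5 CPM lower and 9.76% higher, and 12.6% and 8.29% of all 17115 genes tested. The 3 knockdown and 3 wild-type libraries did not overlap for 323 genes that were lower and 2 that were higher, where 27.6% and 22.8% of genes of at least 5 CPM did not overlap in these directions. The chromosome was picked on this contrast, so nothing is read from these counts.

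The median of the 390 genes in single knockdown libraries, each set against the mean of the 3 wild-type suspension libraries, was -0.38, -0.33 and -0.35. The same libraries had medians of -0.02, -0.00 and 0.00 over genes of the other chromosomes. Each wild-type suspension library, set against the other 2, lay between -0.00 and 0.01. The 3 knockdown libraries were thus alike, and each was lower than each wild-type library.

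The share of all assigned reads that the 390 genes took weights each gene by its level. It was 2.66%, 2.70% and 2.69% in wild-type suspension libraries (mean 2.68 ± 0.02%, SD, n = 3) and 2.19%, 2.19% and 2.21% in knockdown suspension libraries (2.197 ± 0.013%), a ratio of 0.819. In adherent culture it was 2.86%, 2.93% and 2.87% in wild type (2.89 ± 0.04%) and 2.87%, 2.87% and 2.85% in the knockdown (2.86 ± 0.01%). The suspension knockdown libraries were the lowest 3 of the 12. The adherent groups overlapped, and their difference of -0.025 percentage points had an exact two-sided permutation p of 0.5, where 0.1 is the smallest that 3 against 3 libraries allow. Counting error is small at these depths: the 95% exact binomial interval of the wild-type adherent 1 library ran from 2.854% to 2.870%, and covers counting error only.

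**Figure D1:**
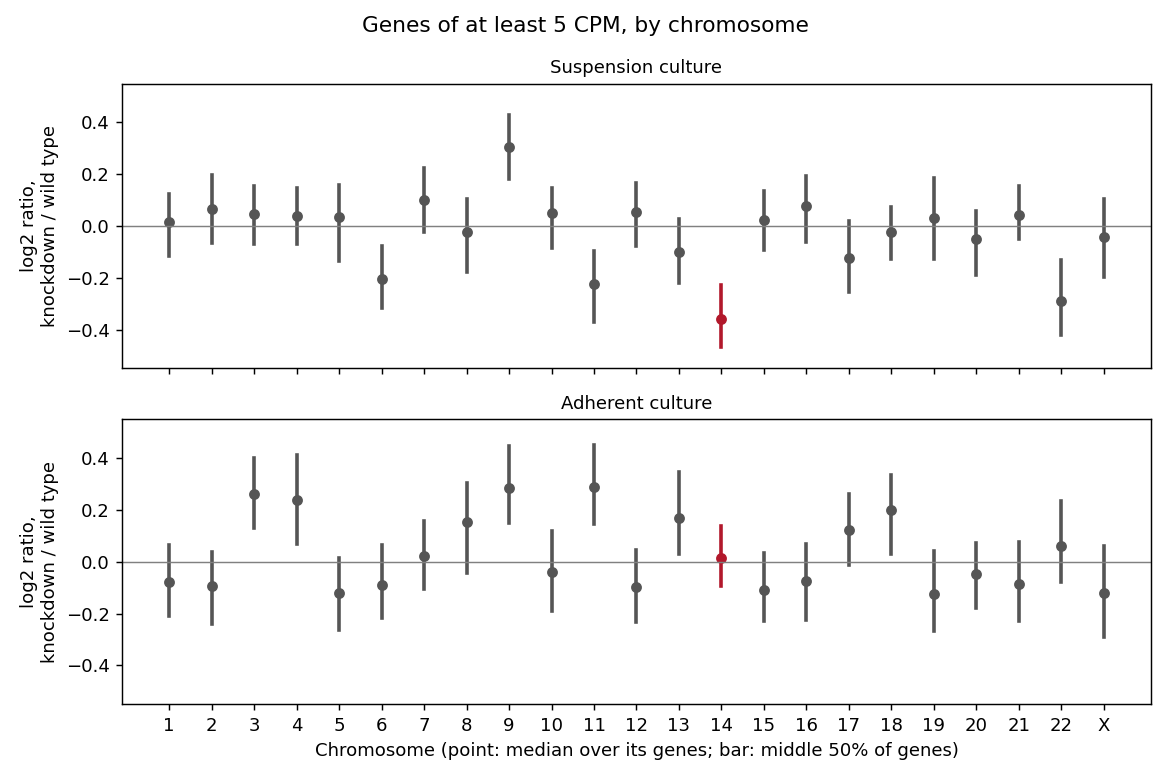
Median log2 ratio of knockdown to wild type (vertical axis, log2) over the genes of at least 5 CPM on each chromosome (horizontal axis), in suspension (top) and adherent culture (bottom); bars span the middle 50% of genes and chromosome 14 is in red. Chromosome 14 has the lowest median in suspension, at -0.36, and lies at 0.01 in adherent culture.

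Chromosome 14 had the lowest median of the 23 chromosomes plotted in suspension. Chromosome 22 followed at -0.29, chromosome 11 at -0.23 and chromosome 6 at -0.21, while chromosome 9 was highest at 0.30. In adherent culture the same medians were 0.01 for chromosome 14, 0.06 for chromosome 22, 0.29 for chromosome 11, -0.09 for chromosome 6 and 0.28 for chromosome 9. The spread of genes within chromosome 14 was not wide: its interquartile range of 0.24 in suspension compares with 0.25 on chromosome 9, 0.28 on chromosome 11 and 0.29 on chromosome 22. Genes at least 0.5 from their chromosome's median made up 3.33% of chromosome 14, 5.82% of chromosome 9, 5.71% of chromosome 11 and 7.04% of chromosome 22. Chromosome 6 had an interquartile range of 0.24 and a share of 4.68%. Chromosome 14 was not the most even chromosome. Over all chromosomes plotted, the range ran from 0.20 (chromosome 18) to 0.31 (chromosome 19). The share ran from 2.95% (chromosome 4) to 8.59% (chromosome 19), with 3.29% on chromosome 1.

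Along the chromosome, every window of 10 Mb of gene start (GRCh38) was lower in suspension knockdown cells, by somewhat different amounts. The first members start at 20256558 and the last at 105526603. From the centromere outward the window medians in suspension were -0.42 for the 71 genes from 20 to 30 Mb, -0.38 for the 35 genes from 30 to 40 Mb and -0.36 for the 15 genes from 40 to 50 Mb. They were -0.31 for the 56 genes from 50 to 60 Mb, -0.32 for the 51 genes from 60 to 70 Mb and -0.37 for the 58 genes from 70 to 80 Mb. The last windows had -0.40 for the 14 genes from 80 to 90 Mb, -0.36 for the 44 genes from 90 to 100 Mb and -0.37 for the 46 genes from 100 to 110 Mb. The medians ran from -0.42 to -0.31, and no window was at the level of the wild-type cells.

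Single libraries show the same shift in every window. The 27 values of 9 windows in 3 knockdown suspension libraries lay between -0.43 and -0.26, and all 27 were below 0. The 27 values of the wild-type suspension libraries, each against the other 2, lay between -0.04 and 0.05, so the sets did not overlap. The windows were not fully even. The 20 to 30 Mb window, at -0.43, -0.38 and -0.36 in the 3 knockdown libraries, was lower than the 50 to 60 Mb window, at -0.34, -0.26 and -0.32, in each library and with no overlap. That pair was picked as the lowest and highest windows, so the gap is a description. In adherent culture the knockdown libraries lay between -0.06 and 0.10 and the wild-type libraries between -0.18 and 0.20. Wild-type adherent replicates 2 and 3, each against the other 2 libraries, lay on opposite sides of 0 in most windows. Replicate 2 was at 0.20 and replicate 3 at -0.13 from 80 to 90 Mb. From 100 to 110 Mb the order was reversed, at -0.18 and 0.16. The wider wild-type range in adherent culture means that a difference as small as 0.1 in a window could not be told from the spread there. The Spearman correlation of the log2 ratio with gene start over the 390 genes was 0.02 in suspension. A rank correlation cannot show a rise and fall: the median was -0.38 in the 130 genes nearest the centromere, -0.32 in the middle 130 and -0.38 in the 130 farthest out. Both are descriptions of genes that share their libraries.

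A running median over 15 neighbouring genes showed finer structure. It was below 0 at all 376 positions in suspension and between -0.60 and -0.22. It was lowest over the 15 genes that begin with NEDD8 (start position 24216852) and highest over the 15 that begin with SUSD6 (69611596). In adherent culture the running median lay between -0.08 and 0.14 and was below 0 at 129 of 376 positions. The low stretch holds TINF2 at -0.999, NFATC4 at -1.32, STXBP6 at -0.77, NYNRIN at -0.76, SDR39U1 at -0.75 and NOVA1 at -0.65. It also holds the leukotriene receptor genes LTB4R at 0.10 and LTB4R2 at 0.14, which lie between TINF2 and NFATC4. Neither receptor gene passed the edgeR threshold as higher, and the knockdown and wild-type libraries of both overlapped. Log2 ratios of close neighbours in this stretch therefore ranged from slightly above 0 to well below it. These genes of the stretch, other than TINF2, NFATC4 and NOVA1, were chosen after their values were seen.

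**Figure D2:**
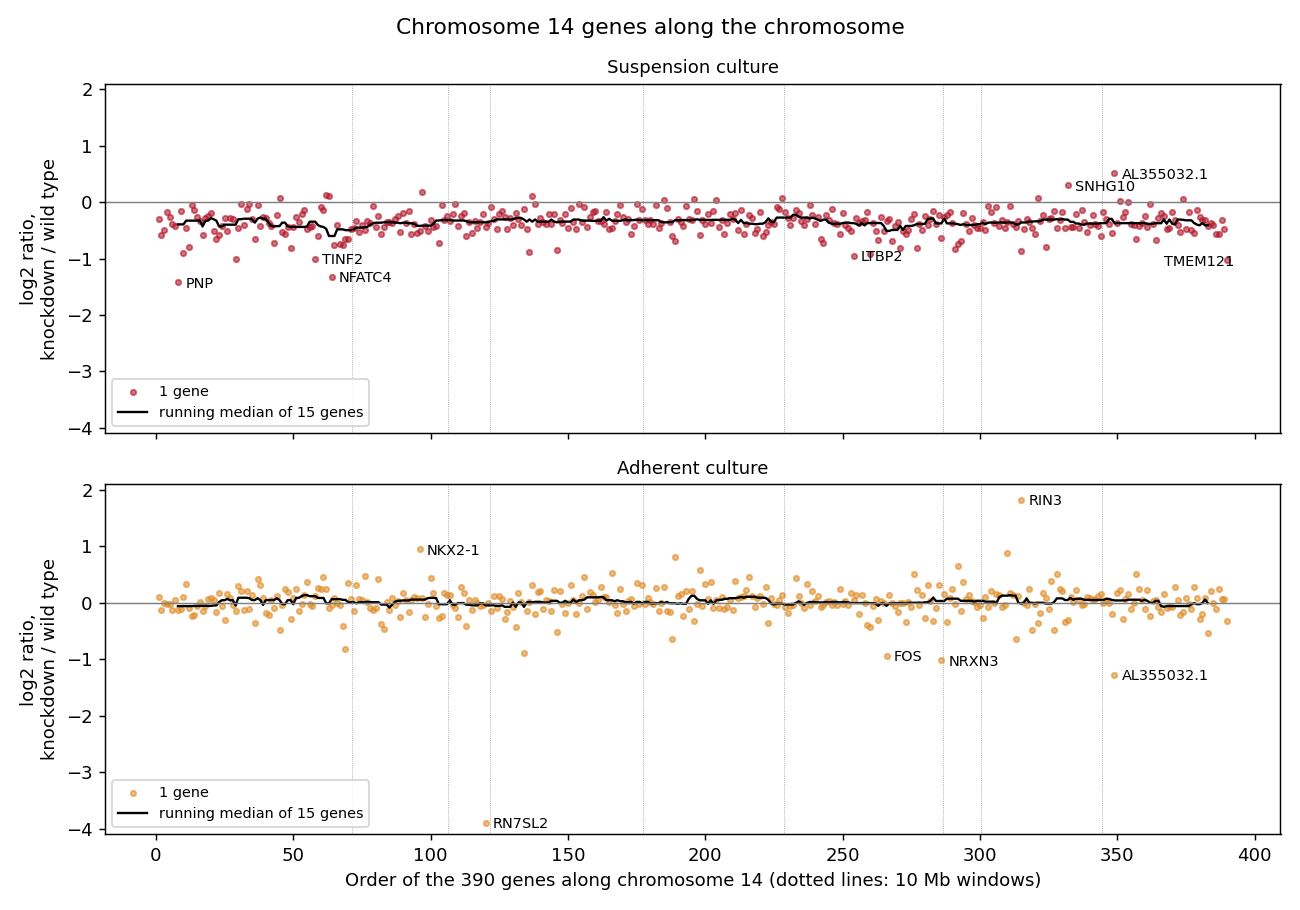
Log2 ratio of knockdown to wild type for each of the 390 genes in order along chromosome 14 (horizontal axis), with the running median of 15 genes, in suspension (top) and adherent culture (bottom); dotted lines divide the 10 Mb windows. In suspension the running median stays between -0.60 and -0.22, and in adherent culture between -0.08 and 0.14.

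The genes that depart from the chromosome were few. Departure is a gene's log2 ratio minus the median of the 390 genes. In suspension 10 genes lay at least 0.5 below that median and 3 at least 0.5 above it, and 4 genes were at least 2-fold lower than wild type. Of the 10 low genes, 5 start between 20 and 30 Mb. Most departing genes were weakly expressed: 11 of the 13 were among the 130 genes of lowest level (5.13 to 24.3 CPM), 1 was in the middle 130 (24.5 to 56.7 CPM) and 1 in the highest 130 (56.7 to 2599 CPM). The interquartile range in suspension was 0.34, 0.21 and 0.16 in these 3 groups of genes, so the difference was most even among highly expressed genes, with medians of -0.37, -0.37 and -0.34. Departures from genes with few reads carry larger errors, which are given with them.

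PNP was the lowest gene and the only departing gene in the group of highest level. It encodes purine nucleoside phosphorylase, which splits inosine and guanosine in purine salvage, and it lies on the plus strand from 20468954 to 20477094. Its level was 275.9, 296.0 and 283.8 CPM in wild-type suspension libraries and 100.7, 111.5 and 107.2 CPM in knockdown suspension libraries. Adherent levels were 164.9, 149.3 and 145.1 CPM in wild-type libraries and 143.8, 139.3 and 135.6 CPM in knockdown libraries. The suspension groups did not overlap, at 2.68-fold lower (log2 ratio -1.42, SE 0.07), whereas the adherent ratio was -0.13 (SE 0.07, edgeR adjusted p = 0.151). PNP was 0.90 higher in suspension than in adherent culture in wild-type cells, on the log2 scale, and was 0.39 lower (log2 ratio -0.39) in suspension in knockdown cells.

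NFATC4, a calcineurin-regulated transcription factor, lies from 24365673 to 24379604 on the plus strand. It was at 22.97, 21.7 and 21.5 CPM in wild-type suspension libraries and at 9.77, 8.64 and 8.08 CPM in the knockdown, a log2 ratio of -1.32 (SE 0.14). In adherent culture the groups overlapped, at 11.04, 10.5 and 16.1 CPM in wild-type cells and 13.5, 11.1 and 12.1 CPM in the knockdown (-0.04, SE 0.14, edgeR adjusted p = 0.867). As with PNP, wild-type suspension cells held the highest level of the 4 groups.

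TINF2, which encodes the shelterin subunit TIN2 at telomeres, was at 28.6, 27.2 and 26.9 CPM in wild-type suspension and 12.6, 14.2 and 14.5 CPM in knockdown suspension libraries (log2 ratio -0.999, SE 0.09). Its adherent levels were 19.9, 19.9 and 19.9 CPM in wild-type cells and 22.1, 21.9 and 21.0 CPM in the knockdown (0.12, SE 0.09, edgeR adjusted p = 0.342). The suspension groups were far apart on either side of the adherent ones. HAUS4, a subunit of the augmin complex of the mitotic spindle, was at 19.3, 17.8 and 19.0 CPM in wild-type suspension and 9.16, 10.03 and 8.70 CPM in knockdown suspension libraries (log2 ratio -1.01, SE 0.11); it overlaps the gene AL132780.1. In adherent culture HAUS4 lay between 7.30 and 9.17 CPM over all 6 libraries, about the level of the suspension knockdown.

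LTBP2, an extracellular matrix protein of microfibrils, was at 19.9, 16.7 and 17.9 CPM in wild-type suspension and 9.16, 9.06 and 10.04 CPM in knockdown suspension libraries (log2 ratio -0.95, SE 0.12). Its adherent libraries lay between 4.22 and 5.24 CPM in both lines (0.04, SE 0.14, edgeR adjusted p = 0.856). NID2, which encodes the basement membrane protein nidogen-2, showed 42.0, 41.3 and 39.4 CPM in wild-type libraries and 21.5, 21.9 and 23.1 CPM in knockdown suspension libraries (log2 ratio -0.88, SE 0.08) and lay between 20.1 and 22.9 CPM in all 6 adherent libraries. For both genes wild-type suspension cells stood above the other 3 groups, with no overlap.

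TMEM121, a transmembrane protein gene and the last member along the chromosome (105526603 to 105530202, plus strand), was at 10.4, 9.72 and 9.40 CPM in wild-type suspension and 3.94, 4.93 and 5.50 CPM in knockdown suspension libraries (log2 ratio -1.03, SE 0.19). Its adherent groups overlapped, at 3.70, 3.63 and 4.75 CPM in wild-type cells and 2.48, 4.61 and 2.85 CPM in the knockdown. NDRG2, of the N-myc downstream-regulated family, was at 17.1, 19.8 and 20.9 CPM in wild-type suspension and 10.4, 9.85 and 10.4 CPM in knockdown suspension libraries (log2 ratio -0.91, SE 0.10), and was higher in adherent culture, from 22.1 to 26.7 CPM. NDRG2 differs from the genes above in that suspension did not raise it in wild-type cells (log2 ratio -0.31). NDRG2 overlaps ARHGEF40, so reads of the pair may be shared.

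PGF, which encodes placental growth factor, a ligand of the VEGF receptor FLT1, was at 13.8, 13.2 and 10.6 CPM in wild-type suspension and 6.51, 6.69 and 6.79 CPM in knockdown suspension libraries (log2 ratio -0.92, SE 0.16). In adherent culture it was at 12.3, 10.6 and 16.3 CPM in wild-type cells and 9.05, 10.8 and 9.69 CPM in the knockdown, with overlapping groups, and it passed as lower (-0.42, SE 0.15, edgeR adjusted p = 0.0412). That call is lost without wild-type adherent replicate 3 (-0.23, adjusted p = 0.239) and under several other alternatives. BMP4, a bone morphogenetic protein ligand, was at 9.58, 11.01 and 10.8 CPM in wild-type suspension and 5.29, 5.17 and 6.79 CPM in knockdown suspension libraries (log2 ratio -0.86, SE 0.15). BMP4 was also lower in adherent knockdown cells (-0.52, SE 0.15, edgeR adjusted p = 0.0149), a call lost without wild-type adherent replicate 1 (adjusted p = 0.0547) and without knockdown adherent replicate 1 (adjusted p = 0.0989).

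**Figure D3:**
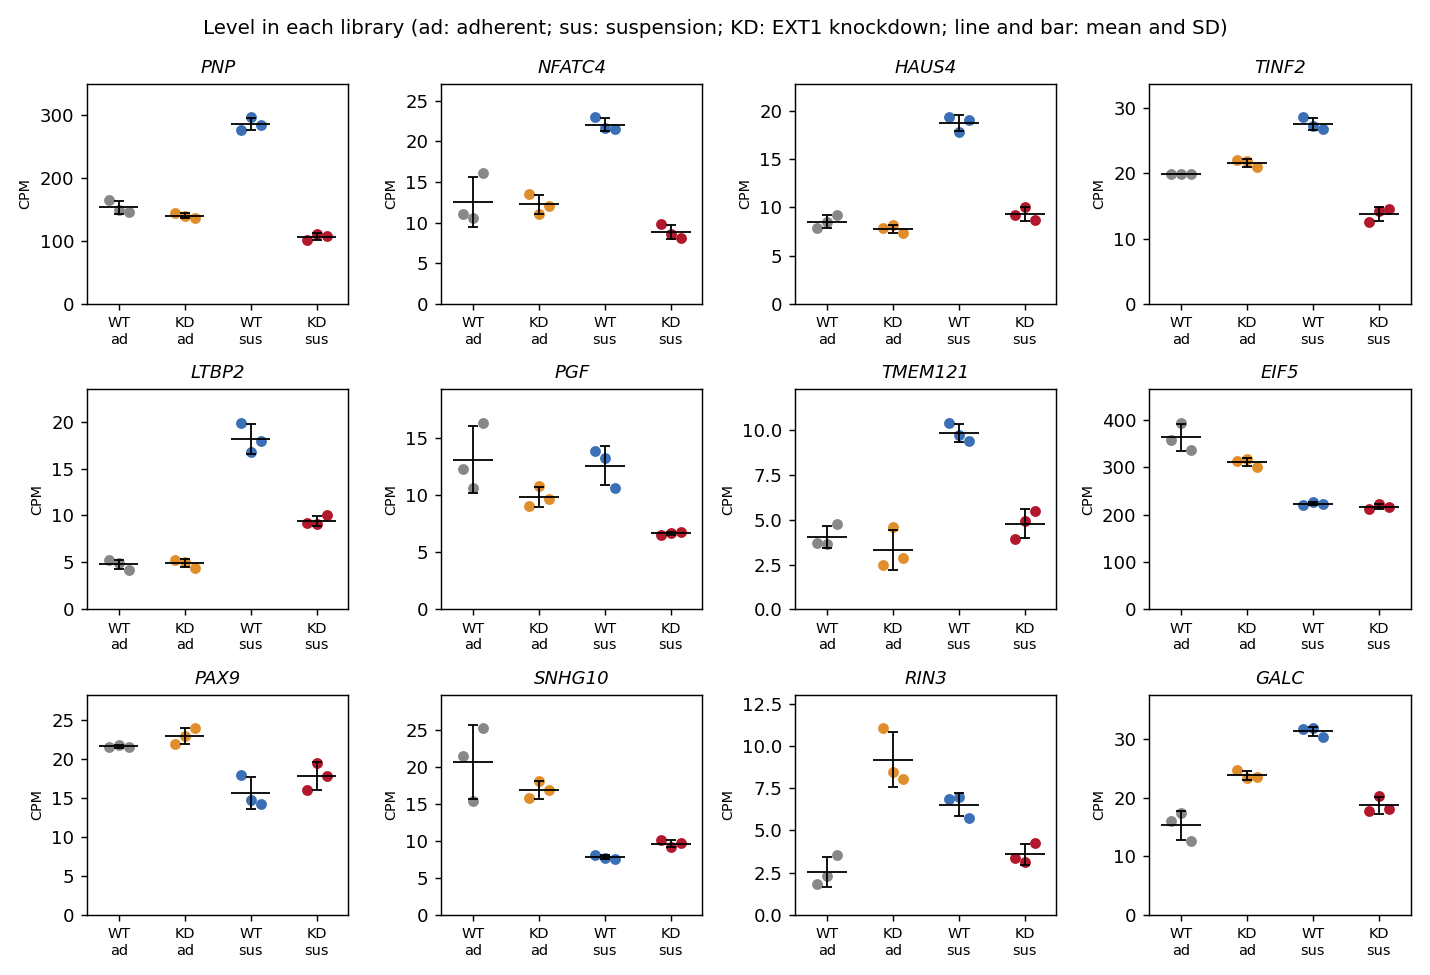
Level of 12 chromosome 14 genes in CPM (vertical axes, starting at 0) in the 3 libraries of each group; lines and bars are the mean and SD. PNP, NFATC4, HAUS4, TINF2, LTBP2 and TMEM121 are highest in wild-type suspension cells, RIN3 is highest in adherent knockdown cells, and EIF5 is alike in both suspension groups.

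On the other side, 3 genes lay at least 0.5 above the chromosome's median. AL355032.1, a processed pseudogene, was at 5.54, 5.15 and 4.21 CPM in wild-type suspension and 5.90, 8.63 and 6.79 CPM in knockdown suspension libraries (log2 ratio 0.51, SE 0.44). As a processed pseudogene it may take reads of its parent gene, and its adherent libraries ranged from 0.749 to 11.6 CPM, so its values are uncertain. SNHG10, a small nucleolar RNA host gene annotated as antisense, was at 8.12, 7.61 and 7.60 CPM in wild-type cells and 10.04, 9.12 and 9.65 CPM in the knockdown in suspension (log2 ratio 0.30, SE 0.16); it overlaps GLRX5, and reads of an antisense pair cannot be told apart where strand was not used. PAX9, a paired-box transcription factor, was at 18.0, 14.8 and 14.3 CPM in wild-type libraries and 16.0, 19.6 and 17.9 CPM in knockdown suspension libraries (log2 ratio 0.18, SE 0.11), with overlapping groups.

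AL355032.1 and SNHG10 were the 2 genes whose knockdown suspension libraries all lay above the wild-type ones, and each is a non-coding entry. Among coding genes EIF5, a translation initiation factor that acts on the scanning ribosome, is the best measured gene without a difference. It was at 220.4, 226.0 and 221.9 CPM in wild-type suspension and 212.4, 221.9 and 215.7 CPM in knockdown suspension libraries (log2 ratio -0.04, SE 0.06). In adherent culture EIF5 fell from 358.1, 393.7 and 336.3 to 312.6, 316.6 and 300.5 CPM (-0.23, SE 0.06, edgeR adjusted p = 0.0127), a call lost without knockdown adherent replicate 3 (adjusted p = 0.0714) and with a fit of the 6 adherent libraries alone (adjusted p = 0.0665). DYNC1H1, the heavy chain of cytoplasmic dynein, was at 489.2, 447.5 and 482.0 CPM in wild-type libraries and 554.8, 438.0 and 444.9 CPM in knockdown suspension libraries (0.02, SE 0.12), and RBM25, a splicing regulator, at 194.7, 181.5 and 199.8 and at 200.2, 191.2 and 167.3 CPM (-0.04, SE 0.09). The groups of both genes overlapped. Among genes that were lower with no overlap, those with the smallest differences included CEP170B, a centrosomal protein, at -0.14, ZBTB1, a zinc finger repressor, at -0.15, METTL17, of the mitochondrial ribosome, at -0.15, MAP4K5, a kinase of the MAP4K family, at -0.15, and NFKBIA, the inhibitor of NF-kappaB, at -0.17.

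Over 12 fits that each leave out 1 library, PNP's departure lay between -1.09 and -1.03 and NFATC4's between -1.06 and -0.91. Of the 13 departing genes, 9 kept a departure of at least 0.5 in all 12 fits. The other 4 were PGF (weakest -0.48), NDRG2 (-0.49), RIN3 (-0.40) and PAX9 (0.48). Fits without an adherent library keep every suspension library, so they can hardly move these values. Only the fits without a suspension library bear on how stable the departures are. The 13 genes were picked on these same values, so the count is a description.

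The most abundant genes of 8 of the 9 windows are given here, and all were below 0 in suspension, by varied amounts. HNRNPC, an hnRNP protein of nascent transcripts, stood at -0.14, RPS29, a ribosomal protein gene, at -0.60 and KTN1, the kinesin-binding protein kinectin, at -0.16 in suspension. MTHFD1, a folate pathway enzyme, stood at -0.30, RBM25 at -0.04, SEL1L, of endoplasmic reticulum-associated degradation, at -0.38, PAPOLA, a poly(A) polymerase, at -0.15, and HSP90AA1, the inducible cytosolic HSP90, at -0.26. HSP90AA1, the most abundant of the 390 genes, was at 2208, 2324 and 2344 CPM in wild-type libraries and 1773, 2016 and 1940 CPM in knockdown suspension libraries. RPS29 rests in adherent culture on 1 library: wild-type adherent 3 held 252.8 CPM against 128.1 and 116.3 CPM in the others. Its adherent ratio was -0.42 (edgeR adjusted p = 0.0958) with that library and 0.03 (adjusted p = 0.813) without it.

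Values next to the level cut show what it does. Just inside it, C14orf93 at 5.13 CPM and RTN1 at 5.20 CPM had suspension log2 ratios of -0.04 and -0.12. Just outside, TGFB3 at 4.84 CPM and AL928654.1 at 4.80 CPM had 0.02 and -1.01. Across the 390 genes the ratio in suspension had Spearman correlations of 0.11 with level, 0.11 with gene length, -0.15 with transcript GC content (389 genes) and -0.00 with promoter GC content (331 genes). The 11299 genes elsewhere had 0.04 with level and 0.20 with length, and 11279 of them had -0.21 with transcript GC. Genes on the plus strand (191) and the minus strand (199) had medians of -0.34 and -0.38. These are descriptions over genes that share libraries.

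In adherent culture, whose 6 libraries are separate from those that picked the chromosome, the 390 genes were centred near 0. Their median log2 ratio was 0.01, 180 were below 0, and the middle 50% lay between -0.09 and 0.14. In edgeR's quasi-likelihood test over 17115 genes, 42 of the 390 rose, 32 fell and 316 did not pass. These are 10.8% and 8.21% of the 390 genes, against 19.4% and 14.2% of all genes of at least 5 CPM and 15.2% and 11.8% of all genes tested. That background holds chromosomes with shifts of their own: the share that rose ran from 5.30% to 54.7% over the 23 chromosomes, and 12 of the other 22 had a smaller share than chromosome 14. The share that fell ran from 1.25% to 30.0%, and 9 of the other 22 had a smaller one. Libraries did not overlap for 69 genes that were higher and 39 that were lower, where 24.1% and 17.2% of genes of at least 5 CPM did not overlap. Without knockdown adherent replicate 1 the counts were 23 higher and 15 lower, and without knockdown adherent replicate 3 they were 25 and 15.

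RIN3, a guanine nucleotide exchange factor for RAB5, rose most in adherent culture. It was at 1.82, 2.27 and 3.55 CPM in wild-type cells and 11.1, 8.48 and 8.04 CPM in the knockdown (log2 ratio 1.83, SE 0.21, edgeR adjusted p = 4.96e-06). In suspension it was at 6.89, 6.97 and 5.74 CPM in wild-type cells and 3.39, 3.10 and 4.26 CPM in the knockdown (-0.86, SE 0.21), with no overlap in either culture and opposite directions. NKX2-1, a homeodomain factor of lung and thyroid, rose from 10.01, 5.51 and 9.03 to 16.7, 14.6 and 16.1 CPM (0.95, SE 0.17, edgeR adjusted p = 0.000363). FBLN5, an elastic fibre protein, rose by 0.89 (SE 0.19, edgeR adjusted p = 0.00178) and SYT16, of the synaptotagmin family, by 0.82 (SE 0.18, adjusted p = 0.00207).

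GALC, the lysosomal galactosylceramidase, rose from 16.0, 17.4 and 12.6 to 24.8, 23.3 and 23.5 CPM in adherent culture (0.65, SE 0.11, edgeR adjusted p = 0.000222). In suspension it was at 31.8, 31.9 and 30.5 CPM in wild-type cells and 17.7, 20.4 and 18.0 CPM in the knockdown (log2 ratio -0.75, SE 0.11). The heat shock protein HSPA2 rose by 0.57 (SE 0.09, adjusted p = 0.000136), ARMH4 by 0.54 (SE 0.11, adjusted p = 0.00101) and PPP4R4, a regulatory subunit of protein phosphatase 4, by 0.52 (SE 0.17, adjusted p = 0.0314). PPP4R4 is lost without wild-type adherent replicate 3 (0.35, adjusted p = 0.132).

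Among genes that fell in adherent culture, RN7SL2, a 7SL RNA of the signal recognition particle, had the lowest ratio, and the size of its fall rests on 1 library. It was at 63.4, 26.9 and 571.2 CPM in wild-type cells and 16.8, 16.6 and 11.5 CPM in the knockdown (log2 ratio -3.89, SE 0.74, edgeR adjusted p = 0.000724). Without wild-type adherent replicate 3 the ratio is -1.59 (adjusted p = 0.00156). 7SL RNA has near-identical copies in the genome, so its reads cannot be placed with certainty. NRXN3, a neurexin of synaptic adhesion, fell from 34.6, 41.9 and 32.5 to 18.0, 18.6 and 17.2 CPM (-1.02, SE 0.11, edgeR adjusted p = 1.94e-06), and in suspension it was also lower (log2 ratio -0.64).

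FOS, an immediate early AP-1 factor, fell from 4.98, 3.41 and 4.27 to 2.31, 1.75 and 2.45 CPM in adherent culture (-0.94, SE 0.21, edgeR adjusted p = 0.0023) and stood at -0.33 in suspension, near the chromosome's median. GNG2, a G protein gamma subunit, fell from 6.43, 5.91 and 5.28 to 2.94, 3.14 and 3.36 CPM (-0.89, SE 0.14, adjusted p = 0.000161) and was at -0.12 in suspension. NOVA1, a neuronal splicing factor, fell by 0.82 (SE 0.12, adjusted p = 8.41e-05), SNAPC1, of the small nuclear RNA activating complex, by 0.65 (SE 0.13, adjusted p = 0.00111) and JAG2, a Notch ligand, by 0.53 (SE 0.08, adjusted p = 4.9e-05). AL355032.1 fell by 1.28 (SE 0.46, adjusted p = 0.0438), a call that 8 of the 12 fits which leave out 1 library lose.

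**Figure D4:**
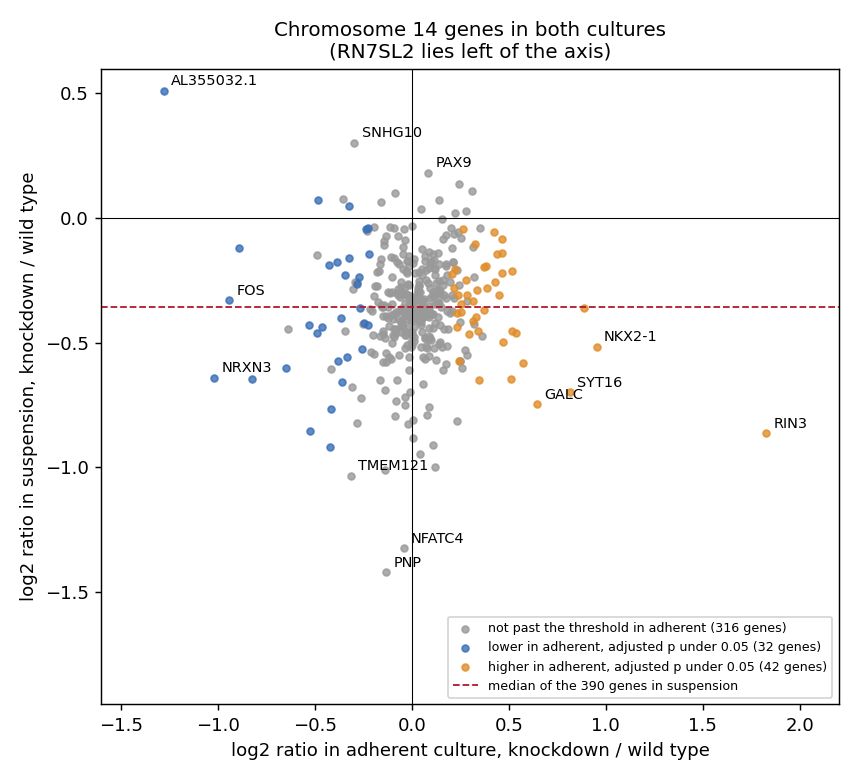
Log2 ratio of knockdown to wild type for each gene in adherent culture (horizontal axis) and in suspension (vertical axis); colours give the edgeR call in adherent culture and the dashed line is the suspension median of -0.36. The 42 genes that rose and the 32 that fell in adherent culture lie on both sides of the dashed line, and RIN3, GALC, SYT16 and NKX2-1 rose in adherent culture and lay below 0 in suspension.

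The 2 lines can be compared across cultures as well, with values that share libraries with the choosing contrast and carry no test. From adherent to suspension culture the median log2 ratio of the 390 genes was -0.04 in wild-type cells and -0.40 in knockdown cells. For genes elsewhere the medians were -0.07 and -0.06. By share of reads, which weights abundant genes, wild-type cells were lower in suspension too, at 2.68% against 2.89% with no overlap, and knockdown cells were at 2.197% against 2.86%.

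By function, the 9 lists with members had suspension medians from -0.47 to -0.31, beside -0.36 for all 390 genes. The lists and their members were chosen with results of these data known, and no list was tested. Several lists hold genes that do not do what the list's name says, so each median describes the list as drawn up. Adherent counts are to be read beside the 10.8% of the 390 genes that rose and the 8.21% that fell, and the 19.4% and 14.2% of all genes of at least 5 CPM. The 6 proteasome subunits and activators, which form or open the proteolytic core, had a suspension median of -0.31, with all 6 below 0. In adherent culture 0 rose, 1 fell and 5 did not pass. PSME1 and PSME2, subunits of the 11S activator, stood at -0.27 and -0.22 and PSMA3, a core subunit, at -0.21 in suspension.

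Of 29 chaperones and ubiquitin ligases, all were below 0 in suspension with a median of -0.31. In adherent culture 5 rose, 3 fell and 21 did not pass. HSPA2 was lowest of the list's named genes at -0.58, whereas VCPKMT, a lysine methyltransferase of the chaperone VCP, stood at -0.09 and RNF31, the catalytic subunit of the linear ubiquitin ligase, at -0.14. The 40 secretory pathway and glycosylation genes had a median of -0.35, with 38 below 0. In adherent culture 6 rose, 1 fell and 33 did not pass. Its named genes were GALC at -0.75, DYNC1H1 at 0.02 and KIF26A, an atypical kinesin, at 0.06.

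The 42 genes of ribosome, translation and RNA processing had a suspension median of -0.31, all below 0. In adherent culture 2 rose, 5 fell and 35 did not pass. TINF2 was named under this list too, although it acts at telomeres, and THTPA, a thiamine triphosphatase, stood at -0.73, so these list members do not do what the list's name says. The DNA repair, replication and cell cycle list has 34 members, with a median of -0.36 and all below 0. In adherent culture 4 rose, 0 fell and 30 did not pass. HAUS4 and TINF2 were lowest, and DTD2, a deacylase of mischarged tRNA, stood at -0.07.

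The transcription factor and chromatin list has 35 members, with a suspension median of -0.32 and 33 below 0. In adherent culture 5 rose, 4 fell and 26 did not pass. NFATC4 and PAX9 were at the ends of the range, and ZNF219, a zinc finger repressor that overlaps ARHGEF40, stood at -0.79. The kinase, growth factor and Hippo signalling list has 44 members, with a median of -0.38 and 43 below 0. In adherent culture 10 rose, 4 fell and 30 did not pass, a share of rises near that of all genes of at least 5 CPM. LTBP2, RIN3 and BMP4 were its lowest genes.

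The list named for mitochondrial proteins has 33 members, with a suspension median of -0.37 and all below 0. It also holds genes whose products act elsewhere, among them VASH1, a tubulin carboxypeptidase, PYGL, the liver glycogen phosphorylase, EIF2B2, a translation initiation factor subunit, FCF1, of ribosome assembly, and MTHFD1, a cytosolic folate enzyme. In adherent culture 1 rose, 1 fell and 31 did not pass. PCK2, the mitochondrial phosphoenolpyruvate carboxykinase, stood at -0.82, GSTZ1, of tyrosine breakdown, at -0.82, and VASH1 at -0.81. The list named for extracellular, adhesion and protease genes has 21 members, with a median of -0.47 and all below 0. It also holds ATL1 and EMC9, of the endoplasmic reticulum, CGRRF1, a ubiquitin ligase, and SPTB, a spectrin, so its median is not that of secreted proteins alone. In adherent culture 4 rose, 5 fell and 12 did not pass. Of the 8 genes listed for the imprinted DLK1-MEG3 domain, 1 had enough reads to be tested and 0 reached 5 CPM, so the domain is not described by these data.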

How the data were processed

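Reads of 12 poly-A selected libraries were mapped to GRCh38 with HISAT2 and counted per gene with featureCounts 1.5.0, per the submitters' processing notes. No source used here gives the strand setting or annotation release, and 184 of the 390 genes overlap another tested gene, with which they can share reads. Raw counts per gene were used as deposited. The FPKM values were deposited by the authors and entered only as an alternative. Rows with few reads were dropped with edgeR's filter, which left 17115 genes and 99.86% of reads. edgeR 4.0.16 in R 4.3.3 fitted 1 mean per group with TMM scaling and its quasi-likelihood test, with Benjamini-Hochberg adjustment over all genes tested; the SE is the log2 ratio divided by the root of F. CPM are TMM-scaled counts. No member had under 13 reads in a library. The fit was also run on simulated counts in which randomly drawn genes were changed in the adherent knockdown group. That simulation held no shift of a whole chromosome and no outlying library, so it does not check calls under such conditions. The members, lists and rules were chosen with earlier results of these data known.

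Genes were named by rule: the 10 highest and 10 lowest departures in suspension among genes whose groups do not overlap, the 8 highest rises and 8 lowest falls past the threshold in adherent culture, the most abundant gene of each window, 2 genes on each side of the level cut, the 3 most departing genes of each of 10 lists, and EXT1; a few genes are not reported here. Alternatives were other scalings, filters, tools (DESeq2 1.42.0, limma 3.58.1), windows and level cuts, and leaving out each library.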

Additional observations from a re-analysis of the deposited data

Results flagged for a closer look

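For 11 of the named genes the 3 knockdown libraries lay apart from the 3 wild-type libraries in both cultures, above them in adherent culture and below them in suspension, so that the knockdown effects have opposite signs. The same held for 54 of all 390 genes (13.8%) and for 6.97% of the 11689 genes of at least 5 CPM, and since 323 of the 390 were lower in suspension without overlap, most genes higher in adherent culture meet it. The difference between the effects was not tested, since the suspension libraries picked the chromosome. As suspension minus adherent log2 ratio it was -2.69 for RIN3, -1.51 for SYT16, -1.47 for NKX2-1, -1.39 for GALC, -1.25 for FBLN5 and -1.16 for HSPA2. It was -1.12 for TINF2, -1.05 for GSTZ1, -0.9997 for ARMH4, -0.63 for SEL1L and -0.51 for PSME1. Of these, TINF2, GSTZ1 and PSME1 did not pass the edgeR threshold in adherent culture (adjusted p = 0.342, 0.106 and 0.0501). SEL1L passed, but edgeR lost its call without knockdown adherent replicate 1 (adjusted p = 0.0592). The call was also lost with a fit of the 6 adherent libraries alone (edgeR adjusted p = 0.0682).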

How the results depend on the processing

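The suspension median over the 390 genes stayed below 0 under every alternative run. It was -0.32 without scaling beyond the library total, -0.29 on log2(FPKM + 1), where the pseudocount understates ratios of low genes, and -0.37 to -0.32 with 1 library left out. The lowest window median was -0.37 without scaling, -0.32 on log2(FPKM + 1), -0.38 for genes of at least 20 CPM, -0.46 in windows of 5 Mb and -0.43 to -0.36 with 1 library left out. The highest window median was -0.27 without scaling, -0.26 on log2(FPKM + 1) and -0.33 to -0.27 with 1 library left out. The count past the threshold as lower lay between 202 and 294, and as higher it was 1 in a fit of 6 libraries and 1 with no filter on low counts.

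In adherent culture the median was 0.0402 without scaling. The lowest window median was -0.0064 without scaling and -0.0863 to -0.0028 with 1 library left out, and the highest was 0.0561 on log2(FPKM + 1), 0.0562 for genes of at least 1 CPM, 0.10 without scaling and 0.0431 to 0.13 with 1 library left out. The fit of 6 libraries called 22 higher and 19 lower, and leaving out 1 library gave 23 to 56 higher and 15 to 40 lower. The difference in read share was -0.048 percentage points without mitochondrial genes (exact permutation p 0.3) and -0.0052 without RN7SL2 (exact permutation p 0.9), an alternative chosen after seeing the data; in suspension it was -0.521 without mitochondrial genes. Of the 16 genes named for a rise or fall, 14 stayed past the threshold under every alternative. AL355032.1 moved to -2.68 without knockdown adherent replicate 2. The cause of these shifts was not tested.

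With the chromosome's median subtracted, 22 of 57 named genes changed sign in suspension, and 8 of these were past the threshold before or after it: HNRNPC 0.22, PSME1 0.0884, DTD2 0.29, PSMA3 0.15, MTHFD1 0.0627, RBM25 0.31, HSP90AA1 0.10 and EIF5 0.32, which is that subtraction's own construction. After it, 28 of the 390 members were past the threshold in each direction. In the main fit the same rule called 14.7% of all genes of at least 5 CPM lower and 9.76% higher in suspension. Nothing is read from these counts.

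Replicate numbers were not used to pair the samples in the main fit. Same-numbered deviations from the group mean correlated at 0.335, 0.141 and -0.12 in suspension and 0.049, -0.106 and 0.125 in adherent culture. Different-numbered ones ran from -0.378 to 0.341 in suspension and from -0.212 to 0.178 in adherent culture. Deviations within a group sum to 0, so these few correlations cannot settle whether the numbers are pairs. With a replicate block the counts were 251 lower in suspension and 41 higher and 31 lower in adherent culture. Depth limits the genes of lowest level, where the departures have the larger errors.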
